A study of Homo sapiens with 15 samples.

Results

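The genes described here stood on the same side of OKF6 in 2 cell lines labelled as head and neck cancer, SCC15 and SCC25, measured against the oral epithelial cell line OKF6. A gene was counted as shared when all 6 cancer libraries lay above, or all 6 below, the range of the 3 OKF6 libraries, and as opposite when 1 line lay above that range and the other below it. Of 12995 genes tested, 1739 were shared higher (13.4% of all genes), 1399 were shared lower (10.8%) and 587 were opposite (4.52%). The remaining 9270 genes had at least 1 cancer line overlapping OKF6.

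OKF6 is labelled as normal oral cells of wild type genotype, and SCC15 and SCC25 as head and neck cancer cells. The SCC15 and SCC25 cells carried a lentiviral Cas9 system with a doxycycline-inducible guide against YBX1, were sorted for GFP and mCherry, and had received no doxycycline, whereas OKF6 carried no such construct. A further 3 libraries of each cancer line came from cells given 1 µg/mL doxycycline. The labels give 3 days for every group. The medium was keratinocyte serum-free for OKF6 and SCC25, but DMEM with foetal bovine serum for SCC15. Malignancy, construct and sorting therefore cannot be told apart in a comparison of cancer lines with OKF6, and for SCC15 medium cannot be told apart either. Each group is 1 line with 3 libraries, and nothing in the sources used here says that these were separate cultures, so p-values measure only the spread between these libraries.

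Values are log2 CPM (a gene's reads per normalized library size, on a log2 scale) from 3′ end sequencing, in which each transcript gives reads near its 3′ end. Between 4075290 and 6118501 reads were counted per library, so that 1 read was worth 0.154 to 0.226 CPM. A gene with 0 reads stands between -3.70 and -3.15 on the log2 CPM scale in these 9 libraries. The OKF6 libraries varied most among themselves, with a median SD of 0.556 log2 units per gene against 0.297 in SCC15 and 0.234 in SCC25. The check of labelled cell type divided the lines. The 12 basal keratinocyte markers summed to 13822 to 21563 CPM in OKF6 and 10262 to 14336 CPM in SCC25, but to only 16.7 to 41.0 CPM in SCC15. TP63, the master transcription factor of stratified epithelium, read 7.50, 6.70 and 6.68 in OKF6, 7.64, 7.16 and 6.63 in SCC25, and -3.46, -3.57 and -2.11 in SCC15. Libraries labelled SCC15 thus lacked the markers of the labelled squamous origin. Whether they hold SCC15 cells, or cells of any head and neck cancer, is in doubt and was not tested. The names of the lines below follow the labels, and every statement on both cancer lines holds for the libraries so labelled. EMX1 and RIMS4 stood at means of 5.84 and 5.59 in SCC15 and had 0 reads in all SCC25 and OKF6 libraries. They were among 20 genes over 5 log2 CPM in SCC15 with at most 3 reads in each of the other 6 libraries, a group chosen after values were seen. The change of SCC25 alone, taken from the fit that shares its estimate of spread over the 3 lines, passed the threshold (adjusted p under 0.05 in limma) for 2450 higher genes (18.9%) and 1473 lower genes (11.3%).

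Squamous epithelium renews from basal cells that express TP63, keratin 5 and keratin 14 and sit on a laminin and integrin anchor, and its daughter cells differentiate towards a cornified layer rich in small proline-rich proteins, S100 proteins and kallikrein proteases. Cell division in these cells is gated by cyclin D kinases, the RB1 pocket protein and the p53 pathway. HOX genes, which lie in 4 clusters, encode transcription factors that set position along the body axis, and the head normally uses few of the 5′ members of each cluster. YBX1, the target of the guide, is a cold shock protein named for binding the Y-box, a promoter element built around an inverted CCAAT.

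The promoters of UCHL1 and KLK10 are shown as examples of the sequence before a gene that stood higher, and one that stood lower, in both cancer lines. The 250 bases before the transcription start are printed 5′ to 3′ in the direction of the gene (hg38, starts from GENCODE 44). Capitals mark the GC box GGGCGG and the CCAAT box, each on either strand.
UCHL1, chr4:41256678-41256927, plus strand: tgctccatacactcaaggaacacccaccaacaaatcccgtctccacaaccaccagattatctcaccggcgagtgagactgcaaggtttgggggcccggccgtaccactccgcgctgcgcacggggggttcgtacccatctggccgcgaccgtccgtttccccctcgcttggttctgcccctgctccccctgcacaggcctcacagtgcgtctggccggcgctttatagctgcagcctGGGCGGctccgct
KLK10, chr19:51019710-51019959, minus strand: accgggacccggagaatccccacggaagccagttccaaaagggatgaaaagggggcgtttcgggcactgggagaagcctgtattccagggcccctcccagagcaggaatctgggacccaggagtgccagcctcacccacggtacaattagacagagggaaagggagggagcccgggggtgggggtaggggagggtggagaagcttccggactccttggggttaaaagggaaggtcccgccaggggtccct
The UCHL1 window held 1 GC box and the KLK10 window held 0, and neither held a CCAAT. Over whole classes the windows ran from 250 bases before to 50 after the start. A GC box stood in 76.9% of shared higher, 73.0% of shared lower and 74.9% of all windows read. CCAAT, the core of the Y-box, stood in 35.0% of shared higher, 34.1% of shared lower and 36.1% of all windows. The AP-1 letters TGANTCA stood in 3.27% of shared higher and 5.54% of shared lower windows, against 4.20% of all. A window could be read for 96.5% of all genes. A match is a description of letters and not a binding site.

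Ranked by the smaller of their line changes, COL6A1, UCHL1 and IGF2BP1 came first among shared higher genes above the median level of all genes, with at most 9, 5 and 6 reads in any OKF6 library. COL6A1, a chain of the matrix protein collagen VI, read -1.80, -3.15 and 0.68 in OKF6, 8.74, 7.84 and 7.83 in SCC15, and 7.58, 7.54 and 7.90 in SCC25. Every cancer library lay more than 6 log2 units above every OKF6 library, and the pooled change, the mean of both line changes, was 9.33 (SE 0.64, adjusted p = 2.69e-06 in limma with Benjamini-Hochberg adjustment). UCHL1, a ubiquitin hydrolase abundant in neurons, read -3.38, -3.15 and -0.11 in OKF6, 8.16, 8.34 and 8.52 in SCC15, and 6.54, 6.56 and 6.33 in SCC25. IGF2BP1, an RNA-binding protein of embryonic tissue, read -1.06, -3.15 and 0.13 in OKF6, 8.91, 8.57 and 8.43 in SCC15, and 5.42, 5.71 and 5.89 in SCC25. The groups of UCHL1 and IGF2BP1 did not overlap, and in both genes SCC15 stood highest.

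The other 9 shared higher genes of that ranking follow. CHCHD10, a protein of the mitochondrial cristae, read 6.76, 4.67 and 5.23 in OKF6, 10.92, 10.69 and 10.32 in SCC15, and 10.50, 10.21 and 10.59 in SCC25, a pooled change of 4.99 (SE 0.38). The means of the cancer lines lay 0.21 log2 units apart for this gene, less than the standard error of 0.43. RFLNB read 0.70, 1.98 and 2.05 in OKF6, 6.73, 6.60 and 6.65 in SCC15, and 7.02, 6.76 and 6.95 in SCC25. BCAT1, which starts the breakdown of branched-chain amino acids, rose by a pooled 6.16, with means of 6.37 in SCC15 and 6.40 in SCC25. CKB, the brain-type creatine kinase, rose by 6.91 in SCC15 and 3.99 in SCC25, and its SCC15 libraries at 12.48, 11.84 and 11.92 were above its SCC25 libraries at 9.16, 9.58 and 8.75. EEF1A2, the translation elongation factor isoform of nerve and muscle, rose by 7.83 and 5.01. CENPV rose by 6.54 and 4.40, APOC1 by 6.15 and 4.31, TOX2 by 4.34 and 5.47, and PPP2R2C by 3.75 and 4.25. For APOC1, 20.5% of the 75-base pieces of its 3′ end also matched elsewhere in the genome.

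The same ranking above the median level gave 12 shared lower genes. CCND2, cyclin D2, read 8.85, 9.08 and 9.34 in OKF6, 5.93, 5.04 and 5.77 in SCC15, and 4.81, 5.64 and 6.02 in SCC25. The lines differed by 0.09 on average, and the pooled change was -3.55 (SE 0.28, adjusted p = 5.58e-06 in limma). GADD45A, a p53-induced stress gene, read 7.97, 7.46 and 7.32 in OKF6, 4.33, 4.04 and 4.45 in SCC15, and 4.35, 4.14 and 4.19 in SCC25. Its pooled change was -3.33 (SE 0.20), and the cancer libraries of both lines interleaved. PIK3R1, the regulatory subunit of PI3 kinase, read 7.29, 6.51 and 6.05 in OKF6, 3.31, 3.71 and 2.87 in SCC15, and 3.55, 3.99 and 3.04 in SCC25. MBD2, which binds methylated DNA, fell by 3.55 in SCC15 and 2.44 in SCC25, and TNFRSF6B, a decoy receptor for FAS ligand, fell by 4.68 and 2.43. EEF1A1, the ubiquitous counterpart of EEF1A2, read 5.42, 6.42 and 7.46 in OKF6, 3.89, 3.53 and 4.09 in SCC15, and 3.90, 3.71 and 3.18 in SCC25. The 3′ ends of CCND2 and TNFRSF6B overlap another annotated gene on the same strand.

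Keratinocyte genes among these leaders stood lower in both lines but to very different depths. KLK10, a kallikrein protease of the upper epidermis, read 7.64, 8.44 and 9.50 in OKF6, 5.76, 4.59 and 4.55 in SCC25, and -0.29, -0.40 and 0.00 in SCC15. GJB2, connexin 26 of epithelial gap junctions, read 8.18, 8.14 and 8.21 in OKF6, 5.91, 4.91 and 4.93 in SCC25, and -1.14, -0.11 and -2.11 in SCC15. In each, SCC25 held an intermediate level while SCC15 was near 0 reads. SPRR1B, a cornified envelope precursor, fell by 2.92 in SCC25 and 11.8 in SCC15. PI3, the elastase inhibitor elafin, fell by 2.91 and 10.9. S100A8, a subunit of calprotectin, fell by 11.2 in SCC15, while its SCC25 difference of -2.70 did not pass the threshold (adjusted p = 0.0696 in limma).

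**Figure D1:**
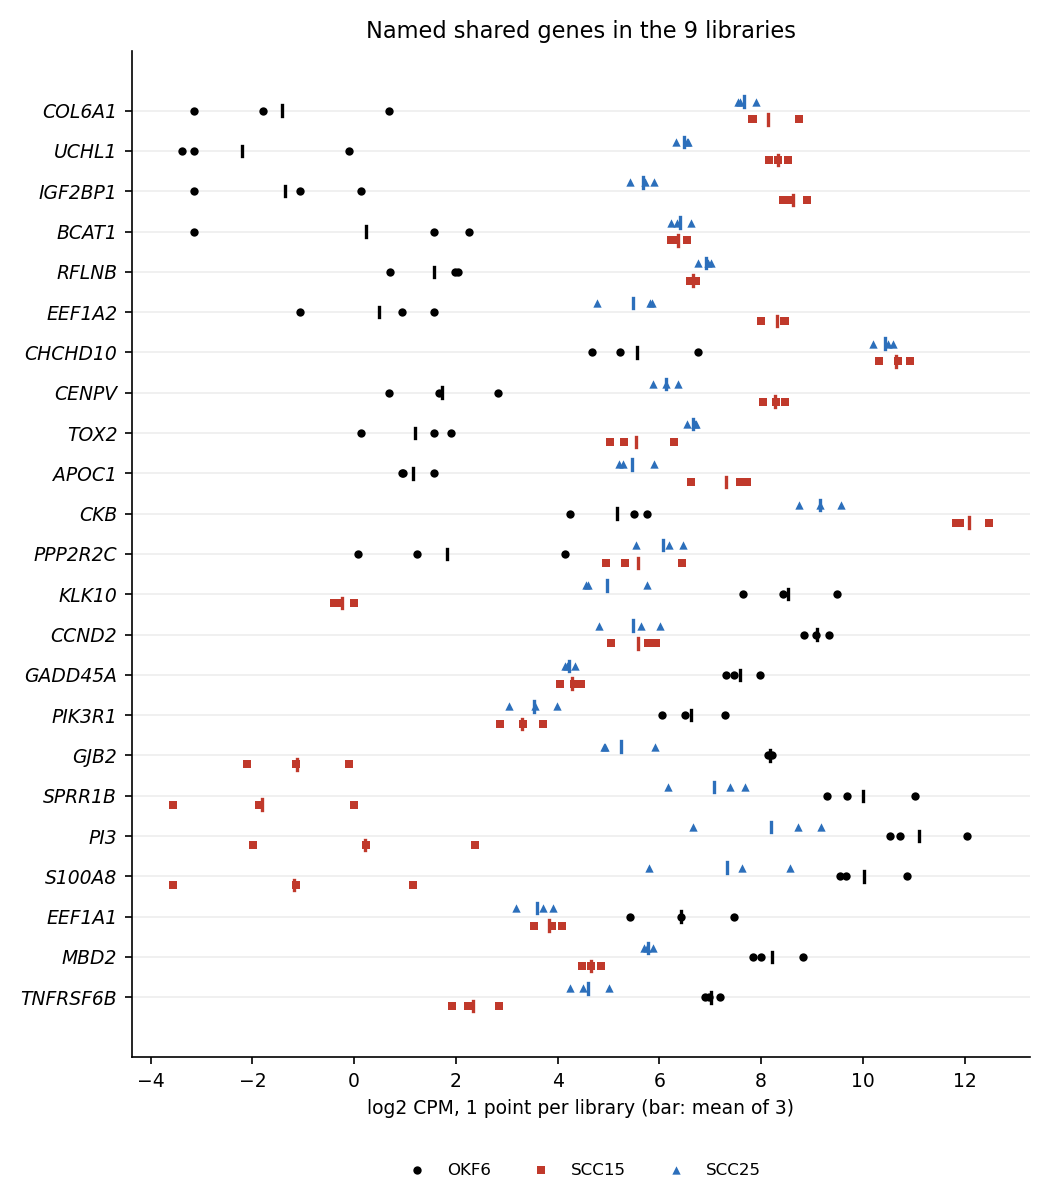
Log2 CPM of 12 shared higher and 11 shared lower genes named by rule, with OKF6 as black circles, SCC15 as red squares, SCC25 as blue triangles and a bar at each mean of 3 libraries. In the upper 12 genes the cancer libraries stand to the right of OKF6, and in the lower 11 to the left, with SCC15 near 0 reads for KLK10, GJB2, SPRR1B, PI3 and S100A8.

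YBX1 itself was shared lower in the cells without doxycycline. It read 6.76, 8.15 and 8.37 in OKF6, 5.11, 5.56 and 6.00 in SCC15, and 6.74, 6.31 and 6.62 in SCC25. The highest SCC25 library lay just under the lowest OKF6 library. The pooled change was -1.71 (SE 0.34, adjusted p = 0.00184 in limma), made of -2.21 in SCC15 and -1.21 in SCC25. In the doxycycline-treated libraries YBX1 read 3.36, 3.71 and 3.13 in SCC15 and 5.26, 4.70 and 3.65 in SCC25, below every untreated library of the same line.

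Across all genes, the pooled change passed the threshold (adjusted p under 0.05, limma, two-sided) for 3392 higher genes (26.1%) and 2671 lower genes (20.6%). These counts include many genes that moved in 1 line only. When each line had to pass on its own, 1498 genes were higher in both (11.5%), 830 were lower in both (6.39%) and 258 went opposite ways (1.99%). The medians of the shared higher genes were 2.03 in SCC15 and 1.74 in SCC25, or 1.95 and 1.61 with genes at 0 reads in a whole group set to the bound that 3 reads allow. For shared lower genes they were -1.77 and -1.19. The rule itself fixes these directions, so they describe the classes and support nothing further. TARDBP was the nearest gene inside the rule for shared higher, with its lowest cancer library at 6.76 beside an OKF6 maximum of 6.76, and LMNTD2, just outside it, had equal reads in the deciding libraries. For shared lower, SPG11 lay just inside, with 3.17 in both its lowest OKF6 library and its highest cancer library, and TMX4 just outside, with 3.67 in each. A gap of over 1 log2 unit between OKF6 and the nearest cancer library was present in 593 shared higher and 276 shared lower genes. Without OKF6 replicate 1 the range narrowed and the classes grew to 2706 and 2236 genes.

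**Figure D2:**
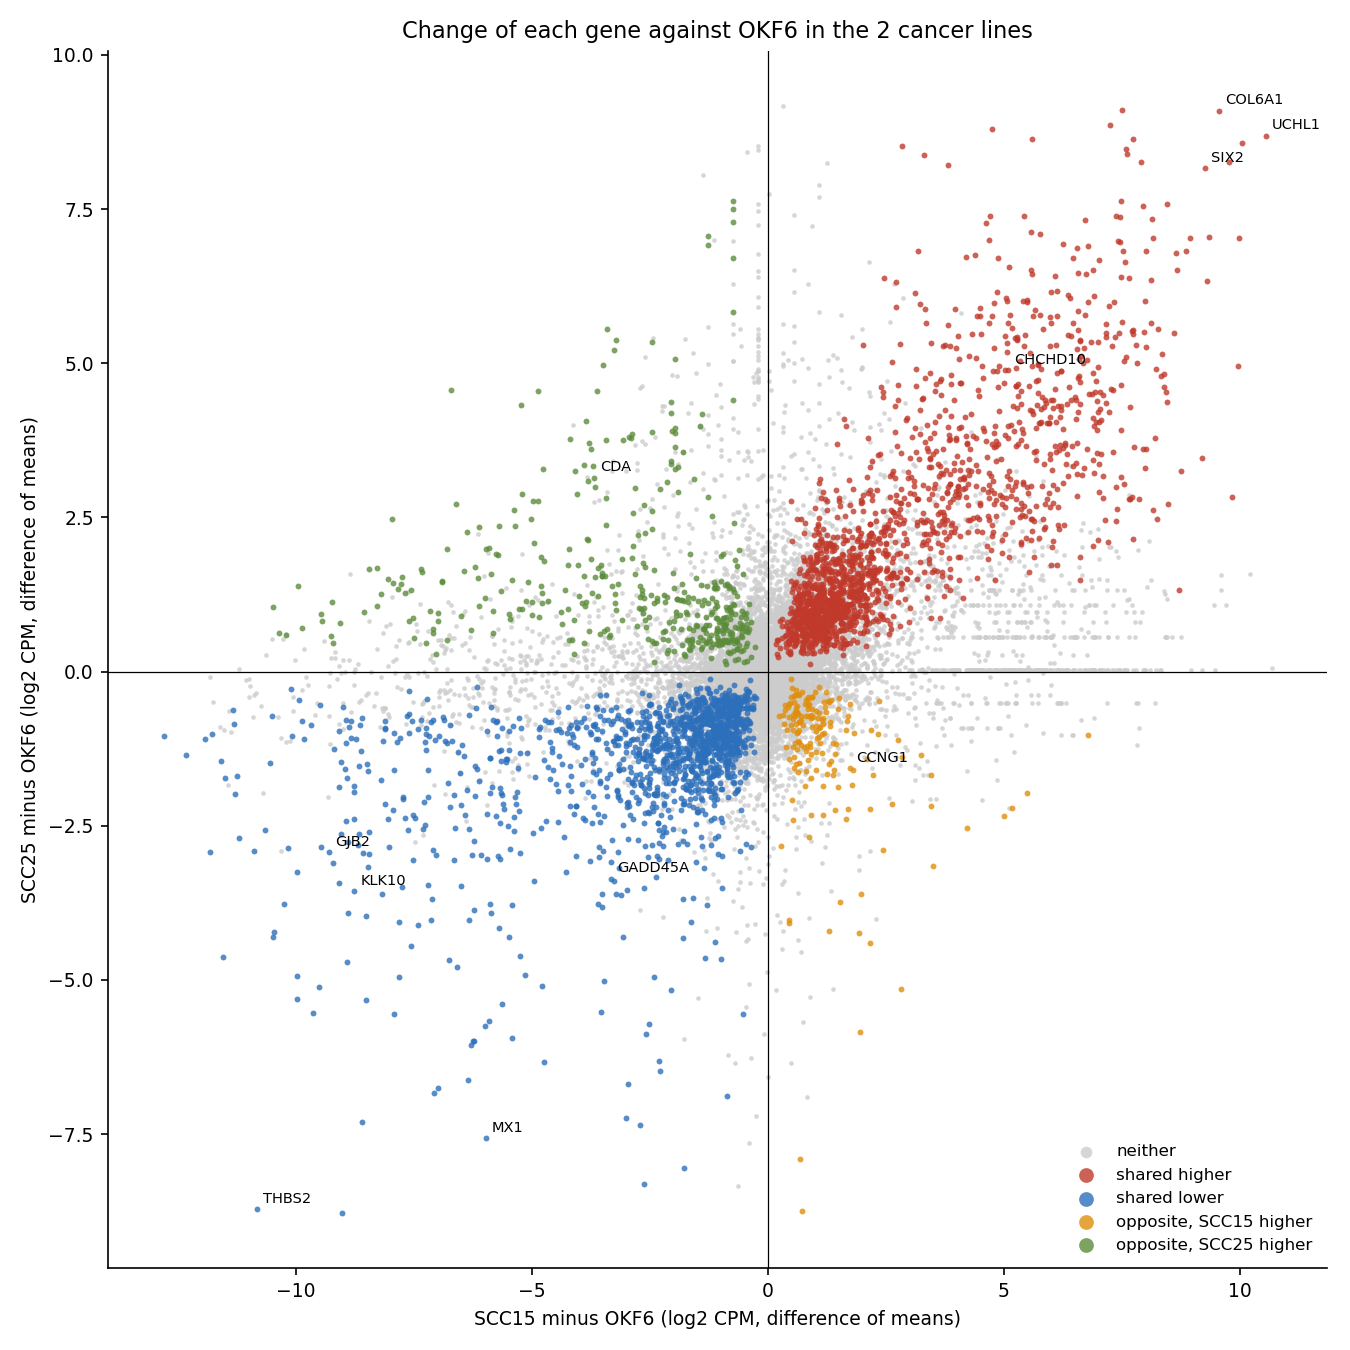
Each point is 1 gene, with the SCC15 minus OKF6 difference of mean log2 CPM on the horizontal axis and the SCC25 minus OKF6 difference on the vertical axis, coloured by class. Red (1739 genes) and blue (1399 genes) fill the quadrants of like direction, and orange (171 genes) and green (416 genes) the quadrants of opposite direction.

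A shared direction did not always mean an equal level in the lines. SCC15 and SCC25 differed (adjusted p under 0.05, limma) in 584 of 1739 shared higher genes (33.6%) and 616 of 1399 shared lower genes. Of all genes tested, 43.6% differed, so shared higher genes did so less often and shared lower genes about as often. The rule used these same values and leaves opposite genes, all of which differed, out of the shared classes. The comparison therefore only describes the classes. In most of the shared genes that differed, SCC15 lay farther from OKF6. Of the 584 shared higher genes, 469 stood higher in SCC15, and 545 of the 616 shared lower genes stood lower there. Among shared genes that differed, NKX2-5 and SIX2, transcription factors of heart and kidney development, followed UCHL1 in the size of the pooled change. Both had 0 reads in every OKF6 library. NKX2-5 read 5.73, 6.82 and 6.66 in SCC15 and 4.97, 4.91 and 4.84 in SCC25, at least 131-fold and 44.2-fold higher than OKF6 against a floor of 3 reads per library. SIX2 was at least 88.8-fold higher in SCC15 and 41.0-fold higher in SCC25. THBS2, a matrix thrombospondin, went the other way, with 8.06, 6.98 and 6.72 in OKF6, 0 reads in all SCC15 libraries (at least 303-fold lower) and at most 3 reads in any SCC25 library. SERPINB2, a plasminogen activator inhibitor, read 9.61, 8.44 and 9.55 in OKF6, 4.43, 4.73 and 4.56 in SCC25 and at most 0.00 in SCC15. CSF3, the granulocyte growth factor G-CSF, read 8.43, 7.51 and 8.02 in OKF6 and fell by 9.98 and 5.32.

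Some shared genes were nearly equal in both cancer lines. NFYC, a subunit of the CCAAT-binding factor NF-Y, read 5.66, 4.81 and 4.95 in OKF6, 6.35, 6.68 and 6.36 in SCC15, and 6.34, 6.62 and 6.44 in SCC25. TRAPPC1 rose by 2.11 in both lines, and TMEM186 differed from OKF6 by 0.91 in both, with an adjusted p of 0.0509 for SCC25 alone (limma). Among lower genes, SMCHD1, a chromatin protein of silenced loci, read 5.13, 5.07 and 5.03 in OKF6, 4.07, 3.95 and 4.04 in SCC15, and 4.01, 4.09 and 3.95 in SCC25. FAM135A fell by 1.61 in both lines and the helicase DDX1 by 0.65 in both. These genes were picked for the smallest difference between the lines, so their likeness is a description. Each of these 6 differences between the lines was smaller than its standard error.

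A set of genes was silent in OKF6 and present in both cancer lines. Of 1092 genes with at most 3 reads in every OKF6 library, 432 were shared higher, beside 13.4% of all genes. Of the 432, 47 had means over 3 log2 CPM in each cancer line. Genes so low in OKF6 could pass the authors' filter mainly through the cancer libraries and could hardly be shared lower. The filter and the rule thus largely fix this count, which is a description. EN1, a homeobox transcription factor of the developing brain, read 5.83, 5.59 and 5.36 in SCC15 and 5.85, 5.79 and 6.21 in SCC25 but at most -1.80 in OKF6. The transcription factor genes PAX6, TBX1, LMX1B, EBF3 and BARX1 belong to the same group of 47. The neurofilament gene NEFL read 5.04, 5.14 and 5.28 in SCC15 and 4.62, 4.59 and 4.75 in SCC25, and the neuropeptide gene GAL read 7.33, 7.72 and 7.83 and 6.18, 6.05 and 6.18. In the other direction, 36 genes had at most 3 reads in all 6 cancer libraries. Of these, 35 were shared lower, beside 10.8% of all genes, and 16 of the 35 had OKF6 means over 3 log2 CPM. The filter and the rule largely fix this count in the same way. C2CD2 read 5.74, 4.95 and 5.60 in OKF6 and DSCAM, a neural adhesion molecule, 2.84, 3.48 and 4.14, and both had 0 reads in all 6 cancer libraries. C2CD2 was at least 81.0-fold lower in SCC15 and 70.9-fold lower in SCC25. The genes of these groups were named after their values were seen.

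HOX genes, a list added after values were seen, held 15 shared higher and 2 shared lower genes among 34 tested. Of all genes, 13.4% were shared higher and 10.8% shared lower. All 4 clusters took part, with 5 of 10 HOXA, 4 of 9 HOXB, 2 of 8 HOXC and 4 of 7 HOXD genes shared higher. Among the genes kept by the authors' filter, 12 of 14 of paralogue groups 9 to 13 were shared higher. The counts were 3 of 10 in groups 5 to 8 and 0 of 10 in groups 1 to 4. A HOX gene near 0 reads in OKF6 could pass that filter mainly through the cancer libraries, and HOX genes silent in all lines were not tested. The filter and the rule thus partly fix these shares, which describe the genes kept and test no position effect. HOXD10 read -3.38, -3.15 and -1.25 in OKF6, 5.06, 5.16 and 4.78 in SCC15, and 5.93, 5.79 and 5.90 in SCC25. HOXD9 had 0 reads in OKF6 and stood at least 25.5-fold (SCC15) and 23.7-fold (SCC25) higher. HOXD11 read -1.06, -3.15 and -0.76 in OKF6 and 5.57 to 6.2 in the cancer libraries, although its 3′ end overlaps HOXD10 on the same strand. HOXA9 read 6.40, 6.98 and 6.77 in SCC15 and 3.79, 3.86 and 3.60 in SCC25. Of the lower genes, HOXB4 fell by 4.66 in SCC25, while its SCC15 difference of -0.98 did not pass the threshold. The 3′ end of HOXB4 overlaps HOXB3.

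Squamous differentiation genes were lower in nearly all cases in SCC15 and in fewer in SCC25. Of 51 tested, SCC15 passed the threshold in 49, all lower, and SCC25 in 22 lower and 1 higher. SCC25 was called lower in 11.3% and higher in 18.9% of all genes, and such a share is not given for SCC15. In all 26 were shared lower and none shared higher, where 10.8% and 13.4% of all genes were. The pooled change passed the threshold in 47, all of them lower (20.6% of all genes were called lower). The median change was -7.33 in SCC15 (-6.76 with genes at 0 reads set to their bound) and -1.87 in SCC25, beside 0.10 and 0.13 over all genes. SPRR2A, a small proline-rich protein, read 6.3, 7.76 and 8.84 in OKF6, -1.87, -3.57 and -0.53 in SCC15, and 2.74, 2.44 and 1.13 in SCC25. SPRR2E followed the same order with means of 7.43, -3.05 and 3.13. SCEL, sciellin of the cornified envelope, had a mean of 4.33 in OKF6, 0 reads in SCC15 (at least 44.8-fold lower) and a mean of -1.23 in SCC25. Basal keratinocyte genes were shared lower in 21 of 51 and shared higher in none, with 5 opposite, beside 4.52% of all genes. SCC15 was called lower in 50 of them and SCC25 in 11, beside 11.3% of all genes for SCC25. Their median was -7.53 in SCC15 (-7.33 at bounds) but -0.64 in SCC25. LAMA3, a laminin-332 chain, read 10.24, 8.83 and 9.44 in OKF6, 7.88, 7.05 and 8.03 in SCC25, and 1.19, -0.11 and 1.16 in SCC15. PROM2 fell by 1.75 in SCC25 and 8.20 in SCC15. CDH1, E-cadherin of epithelial junctions, read 8.31, 8.58 and 8.69 in OKF6, 7.24, 6.81 and 6.93 in SCC25, and 0.45, -1.98 and 1.16 in SCC15. KRT14 was not shared: it read 10.24, 11.42 and 11.95 in OKF6 and 11.33, 11.18 and 9.96 in SCC25. The part of the low marker sums of SCC15 in these counts was not tested.

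Mesenchymal and EMT genes split, with 11 of 45 shared higher, 4 shared lower and 5 opposite. Of all genes, 13.4%, 10.8% and 4.52% fell in these classes. COL6A2, partner chain of COL6A1, read -3.38, -3.15 and -1.98 in OKF6, 4.93, 4.43 and 4.63 in SCC15, and 6.27, 6.14 and 6.42 in SCC25. CDH2, N-cadherin, had 0 reads in OKF6 and stood at least 67.8-fold (SCC15) and 16.3-fold (SCC25) higher. SPARC, a matrix glycoprotein, fell by 8.06 in SCC25 and differed from OKF6 by -1.78 in SCC15, which did not pass the threshold. The membrane protease MMP14 read 5.55, 5.80 and 5.56 in OKF6, 4.63, 4.52 and 4.39 in SCC25 and at most -1.87 in SCC15. LOXL2 fell by 1.83 and 1.44. The 5 mesenchymal markers summed to 658 to 1656 CPM in OKF6, 386 to 418 CPM in SCC15 and 2406 to 3133 CPM in SCC25, so their sum did not move in a shared direction. Of 7 fibroblast markers only 2 and of 3 endothelial markers none were in the table, and the 3 leukocyte markers present summed to at most 47.4 CPM in any of the 9 libraries. Among the longer marker lists, the fibroblast list (2 tested) and the leukocyte list (5 tested) held no shared gene, and the endothelial and melanocyte list held 1 gene, which was shared higher.

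**Figure D3:**
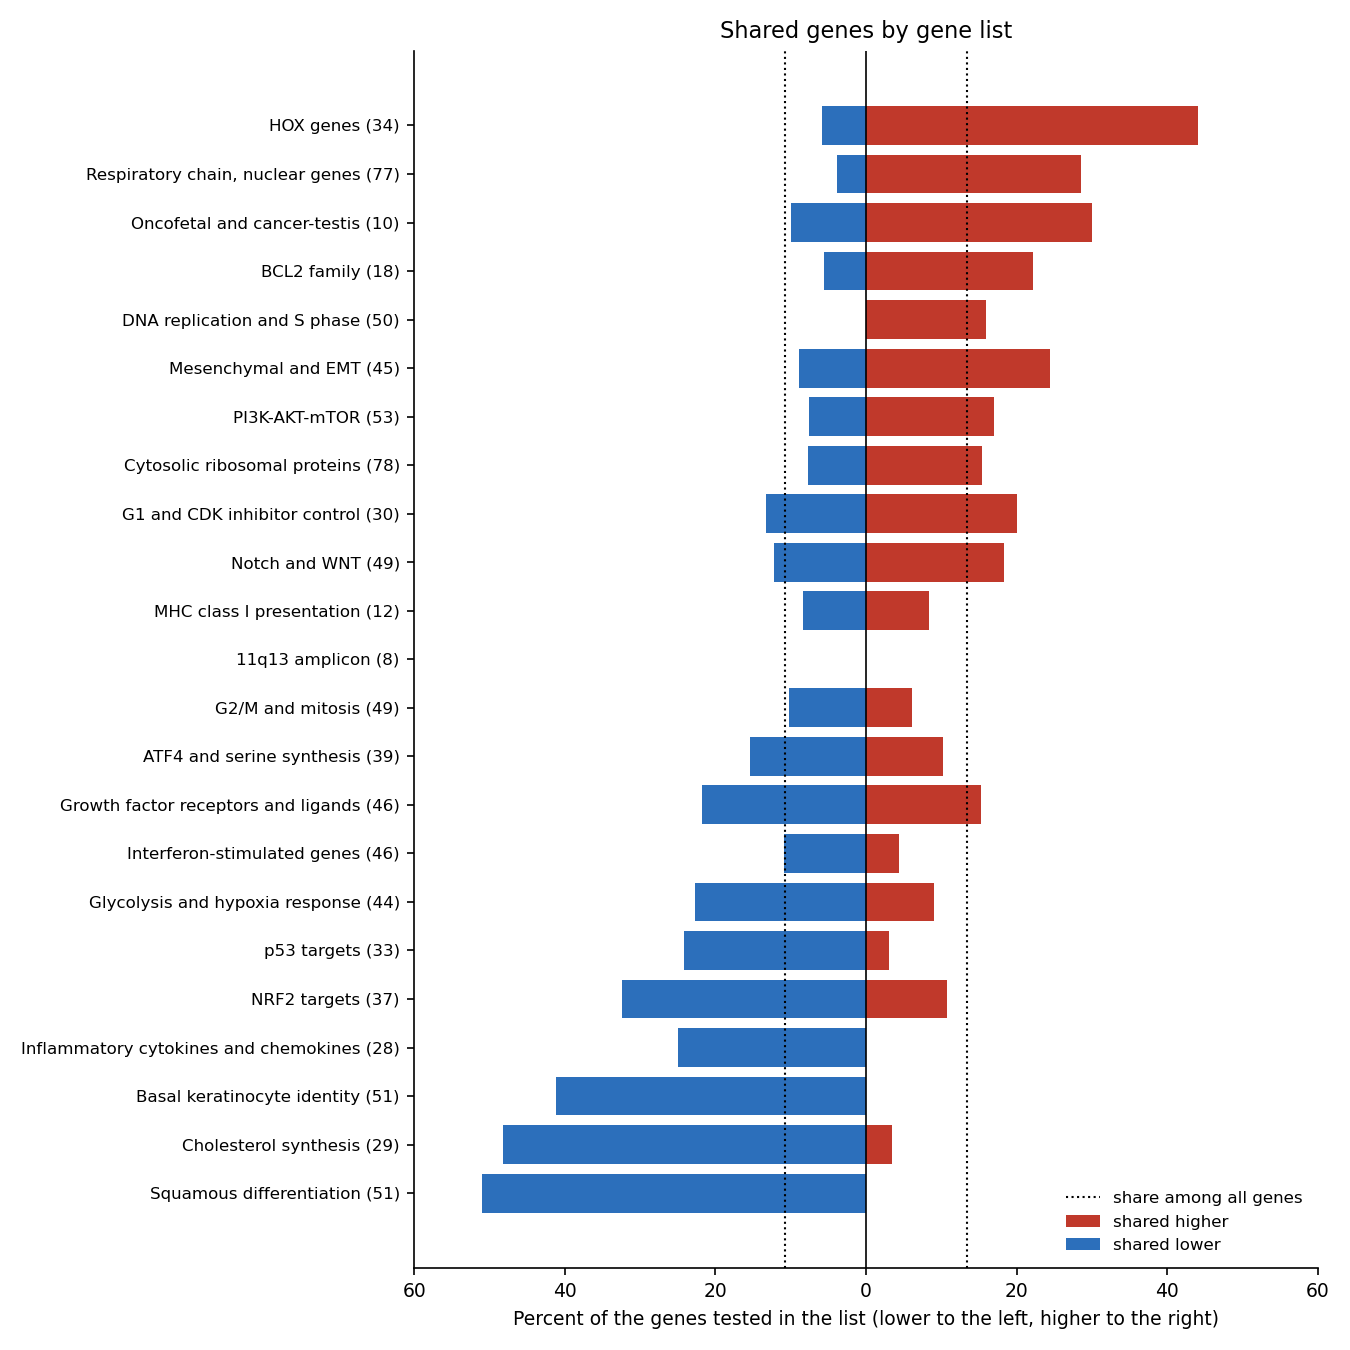
Bars give the percent of tested genes in each list with 8 or more tested, marker lists of other cell types left out, that were shared higher (red, right) or shared lower (blue, left), with the number tested in brackets and dotted lines at the shares among all genes (13.4% and 10.8%). HOX genes (15 of 34) reach farthest right, followed by oncofetal genes (3 of 10) and the respiratory chain (22 of 77), and squamous differentiation, cholesterol synthesis and basal keratinocyte identity farthest left.

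Cholesterol synthesis genes were shared lower in 14 of 29, beside 10.8% of all genes. Of the 29, SCC15 was called lower in 22 and higher in 2, and SCC25 lower in 12 and higher in 3. Of all genes, SCC25 was called lower in 11.3% and higher in 18.9%, and such a share is not given for SCC15. PMVK was shared higher, and the pooled change called 21 lower and 2 higher, beside 20.6% and 26.1% of all genes. The median change was -1.82 in SCC15 and -0.80 in SCC25. HMGCS1, which makes the precursor HMG-CoA, read 9.74, 9.91 and 10.41 in OKF6, 5.91, 6.2 and 5.39 in SCC15, and 8.45, 9.02 and 7.99 in SCC25. CYP51A1, the lanosterol demethylase, read 7.63, 7.65 and 7.99, then 5.75, 5.74 and 5.95, then 6.33, 6.33 and 6.16 in the same order of lines. FDFT1, squalene synthase, fell by 2.13 and 1.35. The groups of all 3 genes did not overlap, and SCC25 lay between OKF6 and SCC15. MVK, mevalonate kinase, was opposite, lower in SCC15 and higher in SCC25.

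Nuclear genes of the respiratory chain were more often shared higher than shared lower. Of 77 tested, 22 were shared higher and 3 shared lower, where 13.4% and 10.8% of all genes were. The median changes were 0.73 in SCC15 and 0.41 in SCC25. NDUFA8, a complex I subunit, read 6.70, 5.66 and 6.39 in OKF6, 8.88, 9.10 and 8.94 in SCC15, and 9.04, 9.23 and 9.08 in SCC25. NDUFA10 rose by 1.36 and 1.23 and NDUFV1 by 1.15 and 1.26, while ATP5F1E fell by 0.78 and 0.60. Cytosolic ribosomal protein genes moved less: 12 of 78 were shared higher and 6 shared lower, near the shares of all genes. FAU read 10.28, 10.62 and 10.46 in OKF6, 11.60, 11.74 and 11.61 in SCC15, and 12.22, 12.17 and 12.03 in SCC25, and RPS16 rose by 1.3 and 1.1. The leading lower members were RPL17, RPL21 and RPL6, for which 94.6%, 100% and 84.3% of 3′ pieces also match other loci, so that their counts are uncertain. In the glycolysis and hypoxia list 10 of 44 genes were shared lower and 4 shared higher. SLC2A3, a glucose transporter, fell by 5.46 and 2.87, SLC16A3, a lactate exporter, by 8.92 and 2.42, and CA12 by 4.92 and 1.70, while LDHB rose by 1.40 and 0.66.

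Of 30 genes of G1 control, 6 were shared higher, 4 shared lower and 4 opposite, where 13.4%, 10.8% and 4.52% of all genes were. CDK4, a cyclin D kinase, read 8.07, 6.60 and 6.84 in OKF6, 8.93, 9.08 and 8.65 in SCC15, and 8.85, 9.22 and 9.31 in SCC25, whereas its relative CDK6 read 7.36, 8.01 and 7.52, then 4.91, 4.73 and 5.19, then 6.11, 5.46 and 5.82. RB1, the pocket protein these kinases phosphorylate, fell by 1.36 and 1.24. E2F2 rose by 3.44 and 2.01, and CDKN1C, the inhibitor p57, by 4.05 and 5.07, from OKF6 libraries at 0.08, -3.15 and 1.72. In DNA replication and S phase 8 of 50 genes were shared higher and none shared lower. RPA1, which coats single-stranded DNA, read 6.45, 6.03 and 6.23 in OKF6, 8.47, 8.12 and 7.99 in SCC15, and 7.96, 8.10 and 7.86 in SCC25. UNG rose by 1.74 and 1.53 and POLA2 by 1.49 and 1.29. G2/M and mitosis genes held 3 shared higher and 5 shared lower of 49 (3 of 49, beside 13.4% of all genes, for shared higher). AURKB rose by 2.12 and 1.61, and NDC80, a kinetochore protein, fell by 1.33 and 1.40.

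Of 33 p53 targets, 8 were shared lower and 1 shared higher, where 10.8% and 13.4% of all genes were. Another 4 were opposite, beside 4.52% of all genes. The median change of the list was -0.10 in SCC15 and -0.65 in SCC25, beside 0.10 and 0.13 over all genes. Beside GADD45A, the repair factor XPC fell by 1.46 and 1.97 and APAF1, the apoptosome scaffold, by 1.24 and 1.74, whereas the nuclease AEN rose by 1.21 and 0.58. In the BCL2 family 4 of 18 genes were shared higher and 1 shared lower. BCL2L12 rose by 1.39 and 1.06 while BCL2L2 fell by 3.71 and 2.46. BCL2L11, the death activator BIM, rose by 2.38 in SCC15, and its SCC25 difference of 0.93 did not pass the threshold. The 3′ end of BCL2L2 overlaps another annotated gene. Of 53 PI3K-AKT-mTOR genes, 9 were shared higher and 4 shared lower, close to the 13.4% and 10.8% of all genes. Their median pooled change was 0.22, beside 0.10 over all genes. AKT1 read 8.06, 7.36 and 7.36 in OKF6, 8.82, 8.39 and 8.39 in SCC15, and 9.08, 9.05 and 9.28 in SCC25. The autophagy kinase ULK1 rose by 1.08 and 1.25. DDIT4, an inhibitor of mTORC1, fell by 3.24 in SCC15, and its SCC25 difference of -1.19 did not pass the threshold.

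Immune lists differed in how far they were shared, where 13.4% of all genes were shared higher, 10.8% shared lower and 4.52% opposite. Interferon-stimulated genes had a median change of -3.89 in SCC15 (-3.73 at bounds) and 0.70 in SCC25, with 5 of 46 shared lower, 2 shared higher and 8 opposite. MX1, an antiviral GTPase, was an exception that fell in both: it read 5.45, 5.07 and 2.16 in OKF6, -0.29, -1.25 and -3.70 in SCC15, and had 0 reads in SCC25, at least 43.5-fold lower. SAMD9 fell by 7.03 and 2.98. IFITM2, a membrane restriction factor, rose, with 3.82, 2.47 and 3.37 in OKF6, 7.0, 6.34 and 6.32 in SCC15, and 6.81, 7.37 and 6.62 in SCC25. Inflammatory cytokines held 7 of 28 shared lower genes and none shared higher. IL36G had 0 reads in SCC15, at least 42.9-fold lower, and fell by 2.40 in SCC25. In MHC class I presentation 1 of 12 genes was shared higher (CANX) and 1 shared lower (ERAP2).

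Stress and nutrient lists were mixed, where 13.4% of all genes were shared higher and 10.8% shared lower. Of 37 NRF2 targets, 12 were shared lower and 4 shared higher. NFE2L2, which encodes NRF2, fell by 2.87 and 1.80, its inhibitor KEAP1 rose by 1.29 and 1.73, and the glutathione transferase MGST1 fell by 2.41 and 1.98. Of 39 ATF4 and serine synthesis genes, 4 were shared higher and 6 shared lower. The amino acid transporter SLC7A5 read 8.99, 10.03 and 10.01 in OKF6, 5.48, 6.32 and 6.2 in SCC15, and 7.58, 7.62 and 7.26 in SCC25, and the cystine transporter SLC7A11 fell by 1.47 and 1.71. CBS rose by 6.01 and 1.72, but all of its 3′ pieces also match another locus.

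Growth factor genes held 7 shared higher and 10 shared lower members of 46, where 13.4% and 10.8% of all genes were. FGFR1, a fibroblast growth factor receptor, read 0.32, -3.15 and 1.19 in OKF6, 4.99, 4.91 and 4.75 in SCC15, and 4.35, 4.48 and 5.36 in SCC25. BMP7 read at most -1.25 in OKF6, 4.90, 5.14 and 5.28 in SCC15, and 3.10, 3.95 and 3.24 in SCC25. The EGFR ligand EREG fell by 3.17 in SCC25, from 6.07, 5.24 and 5.71 in OKF6, and read -3.46, -3.57 and -1.38 in SCC15. In Notch and WNT, 9 of 49 genes were shared higher and 6 shared lower, near the shares of all genes. WNT3A read at most -1.80 in OKF6, 4.14, 4.40 and 4.19 in SCC15, and 2.61, 3.73 and 2.41 in SCC25, and NKD2, a WNT antagonist, had 0 reads in OKF6 and was at least 40.8-fold and 24.5-fold higher. WNT7A had 0 reads in SCC15, and its SCC25 difference of -2.07 did not pass the threshold. LGR4, an R-spondin receptor, fell by 1.73 and 1.91. Of 10 oncofetal and cancer-testis genes, 3 were shared higher (IGF2BP1, MAGED1 and MAGED2) and IGF2BP3 was shared lower. None of the 8 genes of the 11q13 amplicon was shared in either direction, and 2 were opposite, beside 4.52% of all genes.

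Opposite genes numbered 171 with SCC15 higher and 416 with SCC25 higher. CCNG1, cyclin G1 and a p53 target, read 5.81, 5.08 and 5.27 in OKF6, 7.26, 7.12 and 7.04 in SCC15, and 3.90, 3.86 and 3.70 in SCC25. ACADM, a mitochondrial fatty acid dehydrogenase, rose by 1.38 in SCC15 and fell by 1.68 in SCC25. DEPDC1, AKR1B1 and ISOC1 had rises of 1.26 to 1.44 in SCC15 and falls of 1.17 to 1.66 in SCC25.

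Genes higher in SCC25 and lower in SCC15 included cyclin D1. CCND1 read 6.65, 6.42 and 7.07 in OKF6, 3.84, 2.10 and 3.24 in SCC15, and 9.58, 9.49 and 10.05 in SCC25, so that the D cyclins parted: CCND2 fell in both lines and CCND1 in SCC15 only. CDA, cytidine deaminase, read 6.98, 5.06 and 5.54 in OKF6, 2.65, 1.48 and 2.41 in SCC15, and 9.31, 8.83 and 8.87 in SCC25. The protease inhibitor SERPINE2 fell by 2.86 in SCC15 and rose by 2.57 in SCC25, SERINC2 by 2.73 and 2.21, and PMEPA1, a feedback inhibitor of TGF-beta signalling, by 3.81 and 2.14. The interferon-stimulated gene IFI6 read 8.98, 6.35 and 5.64 in OKF6, 5.38, 4.26 and 3.99 in SCC15, and 9.25, 9.12 and 9.54 in SCC25. Its OKF6 replicate 1 stood apart from the other 2.

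**Figure D4:**
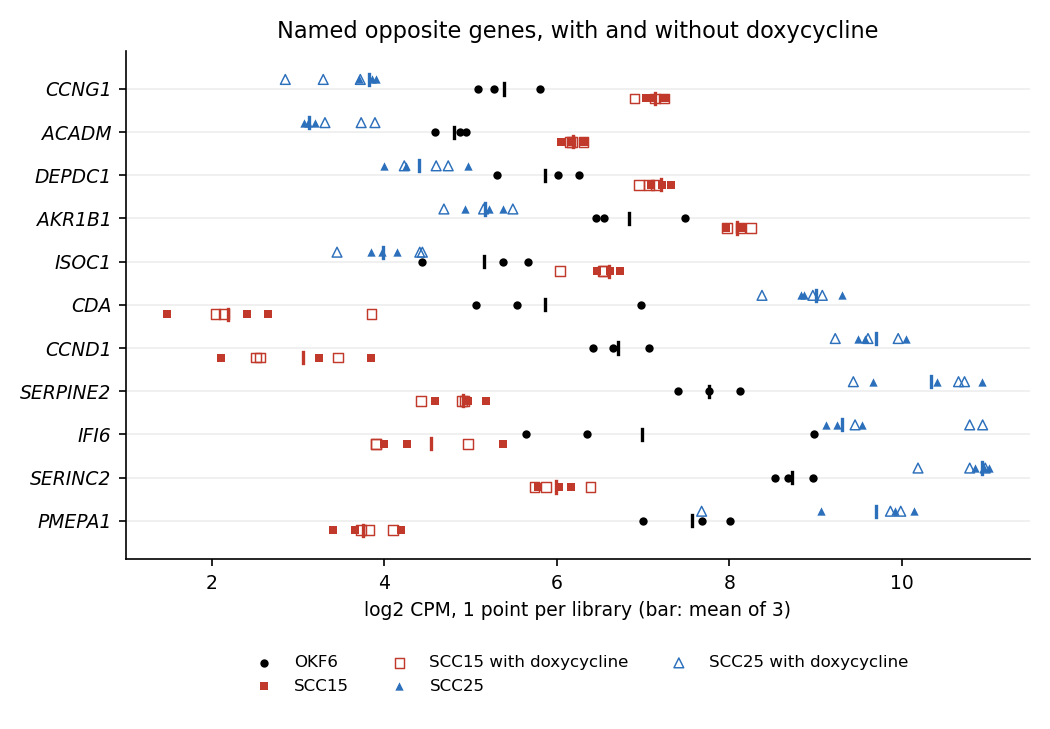
Log2 CPM of 11 opposite genes named by rule, with OKF6 as black circles, SCC15 as red squares, SCC25 as blue triangles, open symbols for doxycycline-treated libraries and a bar at the mean of the 3 untreated libraries. OKF6 lies between the cancer lines in each gene, and the open symbols stay on the side of their line, except for 1 treated SCC25 library of PMEPA1 that lies inside the OKF6 range.

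The doxycycline-treated cultures give a further set of libraries of both lines. They are compared with the same 3 OKF6 libraries and are the same lines, so they show persistence and are no independent test. Of the shared higher genes, 1293 of 1739 (74.4%) had all 6 treated libraries above the OKF6 range, where 11.8% of all genes did. Of the shared lower genes, 1041 of 1399 (74.4%) had all 6 below it, beside 9.27% of all genes. COL6A1 stayed at 8.46, 7.89 and 8.0 in SCC15 and 7.78, 7.86 and 8.08 in SCC25 with doxycycline. CCND2 stayed at 6.34, 5.65 and 5.78 and at 4.84, 5.34 and 5.87. Opposite genes with SCC25 higher kept their sides in 274 of 416 cases (65.9%), and those with SCC15 higher in 86 of 171 (50.3%), beside 3.25% and 1.19% of all genes.

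Shared genes were unevenly spread over the chromosomes. In 132 bins of 20 Mb with at least 40 tested genes, the share of shared higher genes was highest at 220 to 240 Mb of chromosome 1 (31 of 98 genes, and none shared lower), at 0 to 20 Mb of chromosome 17 (68 of 220) and at 100 to 120 Mb of chromosome 14 (16 of 53), against 13.4% of all genes. The share of shared lower genes was highest at 40 to 60 Mb of chromosome 18 (17 of 47), followed among others by 40 to 60 Mb of chromosome 13 (20 of 67) and 0 to 20 Mb of chromosome 20 (27 of 93). Split into 10 Mb bins, chromosome 17 held 61 shared higher and 2 shared lower genes of 159 at 0 to 10 Mb. At 10 to 20 Mb it held 7 shared higher and 15 shared lower genes of 61. In the whole 20 Mb bin of chromosome 17 each gene was centred on its mean over the 9 libraries. The median gene there stood at -0.44, -0.39 and -0.39 in OKF6, at 0.15 to 0.28 in SCC15 and at 0.27 to 0.33 in SCC25. Every OKF6 library lay below every cancer library there. In the chromosome 20 bin OKF6 lay at 0.37 to 0.48 and the cancer libraries at -0.22 to 0.01. Both bins were picked by shares taken from these same libraries, so the levels describe them and are no further support. DNA copy number was not measured here, and its part in these bins was not tested.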

How the data were processed

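QuantSeq 3′ FWD reads passed through Cutadapt, HISAT2 (hg38) and featureCounts, after which the authors normalised and filtered with limma. The deposited log2 CPM add 0.5 to a gene's reads before scaling by normalized library size. Reads recovered from these values were whole within 0.05 of a read. Doxycycline-treated libraries come from a table whose values for the libraries it shares with the cell line table differ by at most 5e-08.

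The 3 lines entered 1 limma fit (version 3.58.1, R 4.3.3, with 1 mean per line, empirical Bayes with a variance trend, Benjamini-Hochberg adjustment over 12995 genes, threshold 0.05), since the files hold log2 values and not counts. The pooled change weights SCC15 and SCC25 equally, and every contrast shares the OKF6 libraries. Equal values were taken as overlap. The 25 gene lists were written by hand. Members and lists were chosen with earlier results of these data known. Named genes are YBX1, the 12 shared higher and 12 shared lower genes above the median level with the largest smaller line change, 6 opposite genes each way, up to 3 each way per list, and the shared genes whose lines differ most or least. Genes of the Y chromosome and XIST are left out, and a few named genes and promoter sequences are not reported here. Uniqueness of 3′ ends was checked by mapping 75-base pieces of the last 500 transcript bases to hg38 with minimap2 2.31-r1302. Whether counting used strand is not given in the sources used here. The limma fit was tested on simulated data. Alternatives were other scalings, filters, variance models, voom weights on recovered reads, a replicate block, and each library left out. Gene positions are from RefSeq on GRCh38, and figures were drawn with matplotlib 3.10.9. Counting depth covers counting error only.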

Additional observations from a re-analysis of the deposited data

Results flagged for a closer look

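A difference between SCC15 and SCC25 in their change against OKF6 singled out 584 shared higher, 616 shared lower and 587 opposite genes (SCC15 minus SCC25, adjusted p under 0.05 in limma), the last fixed by the way that class is defined. Shared higher genes differed less often (33.6%) than all genes (43.6%), and shared lower genes about as often. The rule that set these classes used the same values, so the comparison is a description. Among the named shared higher genes, SCC15 stood above SCC25 by 1.86 log2 units for UCHL1, 2.97 for IGF2BP1, 2.82 for EEF1A2, 2.14 for CENPV, 1.84 for APOC1, 2.92 for CKB, 1.50 for NKX2-5 and 1.1 for SIX2. Among the shared lower genes, SCC15 minus SCC25 was -5.20 for KLK10, -6.37 for GJB2, -8.89 for SPRR1B, -7.98 for PI3, -8.51 for S100A8, -1.11 for MBD2, -2.26 for TNFRSF6B, -2.11 for THBS2, -6.91 for SERPINB2 and -4.66 for CSF3. Among the opposite genes it was 3.32 for CCNG1, 3.06 for ACADM, 2.81 for DEPDC1, 2.92 for AKR1B1, 2.62 for ISOC1, -6.83 for CDA, -6.64 for CCND1, -5.42 for SERPINE2, -4.76 for IFI6, -4.95 for SERINC2 and -5.95 for PMEPA1. The lines differed as well in 42 of the 102 named list members, beside 43.6% of all genes.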

How the results depend on the processing

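Same-numbered libraries did not deviate together (r from -0.207 to 0.26, with its own number the best match in 3 of 9 comparisons), and with a replicate block the pooled change called 5891 genes instead of 6063, which changed no named call. Treating all 6 cancer libraries as 1 group lowered this to 2349 genes (1527 higher, 822 lower). Among genes above the first quartile of level 2007 were higher in the pooled change and 981 in both lines, and 774 shared genes differed between the lines. Leaving out 1 library in turn gave 5306 to 7047 pooled calls, 1114 to 2149 higher and 539 to 1201 lower in both lines, and 144 to 330 opposite in both. The lowest lower count came without SCC25 replicate 2, and the opposite count was 152, 144 and 167 without SCC25 replicate 1, 2 and 3. Without 1 library the range held 1808 to 2706 shared higher, 1447 to 2236 shared lower and 620 to 982 opposite genes, the most without OKF6 replicate 1. A gap of at least 1 log2 unit left 593, 276 and 57 genes, and 446 and 186 shared higher and lower genes in the doxycycline-treated libraries. SCC25 alone, added after seeing the data, gave 3923 calls (1473 lower) and 3279 genes above and 2353 below the OKF6 range. Requiring each line to pass the threshold left 814 shared lower and 238 opposite genes. Equal library medians gave 1894 shared higher and 1257 shared lower genes, and quantile normalization 1570 and 1434. Of 146 named genes, 120 kept direction and call under every alternative that could be run for them (134 had the 1-group fit, in which 25 lost their call, and 126 passed the first quartile), and none reversed. The cause of these shifts was not tested. Genes near 0 reads in a group carry little depth, and their fold changes depend on the reads added.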
